A study of Nicrophorus vespilloides with 60 samples.

Results

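The 100 most abundant transcripts in the heads of burying beetle larvae (*Nicrophorus vespilloides*) took 38.3% of all counts on average, although they are 0.727% of the 13761 genes in the count table. They were chosen as the 100 genes with the highest mean CPM (a gene's counts scaled to a library total of 1000000) over all 46 RNA libraries. The level itself is therefore what chose them and is given as a description. The choice took no account of group. Ranking by the mean of the 4 group means gave the same 100 genes, which groups of nearly equal size make almost certain. The highest medians shared 98 of them. The cutoff fell on a smooth slope: the members at ranks 99 and 100 had mean levels of 1877 and 1872 CPM, and the next 2 genes, just outside, had 1866 and 1842 CPM.

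Parents of this species raise their larvae on a small carcass, feeding and defending them. Populations had evolved in the laboratory either with parental care (FC_POP) or with the parents removed before the eggs hatched (NC_POP), and larvae of generation 30 from both were raised without care (NC_ENV, parents removed 53 h after pairing) or with it (FC_ENV). Heads of first-instar larvae were collected 80 h after pairing. Each library pooled 4 heads of 1 family, so that the family was the replicate for the environment. There were 11 libraries of FC_POP larvae in NC_ENV, 12 of FC_POP larvae in FC_ENV, 12 of NC_POP larvae in NC_ENV and 11 of NC_POP larvae in FC_ENV. All populations came from 1 source population, made by interbreeding beetles of several wild populations. The 2 replicate lines of each population were kept in separate blocks. Lines F1 (FC_POP) and N1 (NC_POP) were taken as block 1, and lines F2 and N2 as block 2. The block was read from the number in the line name. Within a population, line and block therefore cannot be told apart. A population was replicated only by its 2 lines. The SEs and p-values given for population contrasts and for the interaction count families as replicates, and do not measure the spread between lines.

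In animal tissues a small number of genes usually supplies a large part of the polyadenylated RNA. Such genes commonly encode the protein parts of the ribosome and the factors that work with it, enzymes of energy metabolism, proteins of muscle and cytoskeleton and, in insects, proteins of the cuticle. Because sequencing divides a fixed number of reads among all transcripts, a gain in share by some genes is always a loss by others, and a share of counts is not a number of molecules. CPM also takes no account of transcript length, so ranks are ranks of counts. The identifiers of the count table are not paired with names or products in the sources used here, so the members are described by rank and by the genes they varied with, and at most 2 that rose and 2 that fell are given by identifier. In pooled heads, fewer cells of a type and less RNA per cell cannot be told apart.

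The totals ran from 102719698 to 145666277 counts per library. The 95% Wilson interval of a single library's share was thus at most 0.0191 percentage points wide, which covers counting error only. It takes every count as an independent read, which was not tested, and would be too narrow if counts come in steps. All 100 members passed the filter on low counts, and the lowest count of any member in any library was 240. Counting error is therefore a small part of the spread described here, which is mostly between families and their libraries. No 2 libraries of a group were identical in their counts among the 242 pairs compared.

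The counts were steeply divided even among the members. The most abundant gene averaged 24463 CPM, or 2.45% of a library, and ranged from 19085 to 28853 CPM. The second averaged 21157 CPM and the third 14032 CPM. In all, 5 members averaged over 10000 CPM, 9 averaged from 5000 to 10000 CPM, and the other 86 were lower. The 10 highest members took 11.5% ± 1.10 of a library (SD, n = 46).

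FC_POP larvae raised without care put a larger share of their counts into the members than FC_POP larvae raised with care. The share was 40.9% ± 1.28 in NC_ENV and 36.3% ± 1.78 in FC_ENV (SD, n = 11 and 12), a difference of 4.60 percentage points (SE 0.641). In NC_ENV the lowest, median and highest libraries were at 39.3%, 41.1% and 42.7%, against 33.04%, 36.3% and 39.3% in FC_ENV. The groups touched at their edges, and 10 of the 11 NC_ENV libraries lay above every FC_ENV library. No test is given for these sums, since the members were picked for their levels in the same libraries.

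In NC_POP the same difference was smaller and the groups overlapped more. The members took 39.0% ± 2.17 of the counts in NC_ENV and 37.1% ± 1.15 in FC_ENV (SD, n = 12 and 11), a difference of 1.89 percentage points (SE 0.716). The NC_ENV libraries had a lowest, median and highest share of 34.05%, 39.2% and 42.5%, against 35.3%, 36.8% and 39.1% in FC_ENV. Of the 12 NC_ENV libraries, 7 lay above every FC_ENV library, while family N1_30 lay below all of them. Without that library the difference was 2.34 percentage points.

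By its mean this shift was larger in F2 than in F1 and in N2 than in N1, but the difference between lines was not tested. The share in NC_ENV minus that in FC_ENV was 3.49 points for line F1 (SE 0.821) and 5.54 points for line F2 (SE 0.902), against 0.942 points for N1 (SE 1.32) and 2.95 points for N2 (SE 0.496). In F1, F2 and N2 every NC_ENV library lay above every FC_ENV library of its line. In N1 only 3 of 6 did, and the SE was larger than the difference. By contrast, the populations pooled over environments differed little, at 38.1% ± 1.97 in NC_POP and 38.5% ± 2.80 in FC_POP (SD, n = 23 each).

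**Figure D1:**
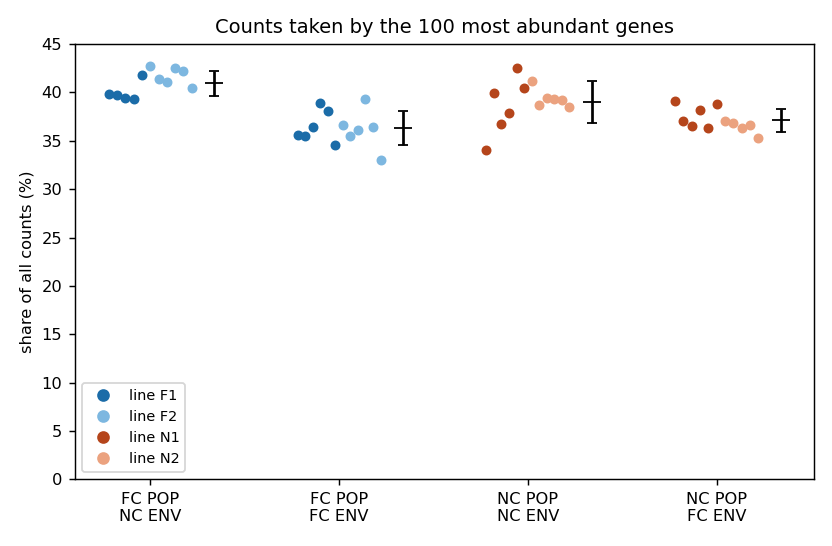
Share of all counts (%, y axis from 0) taken by the 100 most abundant genes in each of the 46 libraries, by population and environment; each point is a family coloured by line, and the bar beside each group is its mean ± SD. FC_POP libraries in NC_ENV sit between 39.3% and 42.7% and those in FC_ENV between 33.04% and 39.3%, while the NC_POP groups overlap, with 7 of 12 NC_ENV libraries above every FC_ENV library.

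The shift did not extend to the genes just below the members. The next 100 genes by mean CPM took 12.7% ± 0.738 in NC_ENV and 13.5% ± 0.604 in FC_ENV in FC_POP, and 12.5% ± 0.814 in NC_ENV and 13.6% ± 0.513 in FC_ENV in NC_POP (SD, n = 11 or 12). Their share was thus lower without care in both populations, where that of the members was higher. Counting each library's own 100 most abundant genes, whichever they were, gave 42.0% in NC_ENV and 38.4% in FC_ENV in FC_POP, and 40.5% in NC_ENV and 38.6% in FC_ENV in NC_POP. The number of genes needed to reach 50% of a library's counts was 150 ± 10.7 in NC_ENV and 181 ± 17.6 in FC_ENV in FC_POP, and 165 ± 16.4 in NC_ENV and 179 ± 14.1 in FC_ENV in NC_POP (SD). By line this number was 157 in NC_ENV and 182 in FC_ENV for F1, 144 in NC_ENV and 180 in FC_ENV for F2, and 162 in NC_ENV and 191 in FC_ENV for N2. For N1 it was 168 in NC_ENV and 169 in FC_ENV (difference -0.333, SE 9.02), so that the NC_POP difference came from N2.

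Membership itself was stable for most genes. Of the members, 84 were among the 100 highest genes of all 4 groups, 6 of 3 groups, 9 of 2 groups and 1 of a single group. In single libraries, 49 were in the top 100 of all 46, and a library's own top 100 held from 70 to 96 of them. Only 7 members were in the top 100 of fewer than 23 libraries. The member at rank 35 fell as low as rank 8889 in a single library.

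The members divided sharply into steady and widely varying genes. The ratio of the highest to the lowest library was under 2-fold for 69 members, from 2- to 5-fold for 13, from 5- to 10-fold for 2 and at least 10-fold for 16. The steady 69 took 24.1% of the counts together and the 16 widest took 5.62%. Among families of a line and environment, the SD of log2 expression had a median of 0.159 over the members, against 0.254 over the next 100 genes and 0.270 over all 11777 genes tested. This SD was under 0.25 for 73 members, against 44.0% of all genes tested. It was over 1 for 15 members, against 6.63% of all genes tested.

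**Figure D2:**
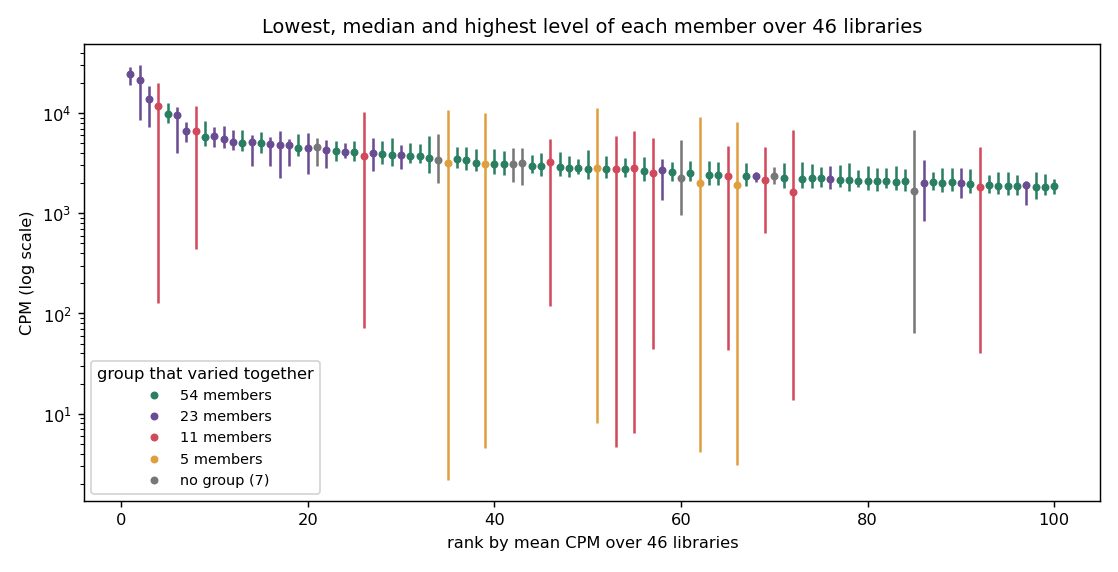
Level of each member in CPM (log scale, y axis) against its rank by mean CPM (x axis); the point is the median and the line runs from the lowest to the highest of the 46 libraries, coloured by the group of genes it varied with. Most lines are short, with 69 members spanning less than 2-fold, and the 11 and 5 members of the 2 widest groups reach down to as little as 2.18 CPM.

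To see which members moved together between families, the mean of each line and environment was subtracted from the log2 expression of each member, and members were grouped by the correlation of what was left (average linkage, correlation of at least 0.5, groups of at least 5). The limit was chosen after the data were seen, and these groups are a description of the 46 libraries without a test. Over the 4950 pairs of members the median correlation was 0.406, and 24.2% of pairs were over 0.8. Points share their library, its scaling factor and its total, so part of any such correlation can come from the scaling, and that part was not tested. The grouping gave sets of 54, 23, 11 and 5 members, and 7 members belonged to none.

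The largest set, of 54 members, varied little, and mostly together. Its median correlation was 0.87 and its lowest 0.13, and its members spanned from 1.42- to 2.32-fold over all libraries. It held few of the very highest genes, with a median rank of 60 and only 9 members in the top 30. The set of 23 held the 3 most abundant genes and 17 of the top 30, with a median rank of 18, a median correlation of 0.75 and a median span of 1.92-fold. The median correlation between members of these 2 sets was 0.16.

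The sets of 11 and 5 were the variable ones. The 11 included the fourth and the eighth most abundant genes, and their highest library exceeded their lowest by 7.27- to 1267-fold, with a median of 128-fold. The fourth most abundant gene alone ran from 128 to 20005 CPM. The 5 members of the smallest set, at ranks 35, 39, 51, 62 and 66, spanned from 1359- to 4957-fold, the widest being at rank 35, from 2.18 to 10808 CPM. Only 1 member outside these 2 sets, at rank 85, spanned 10-fold or more. Within the 11 the median correlation was 0.85 and the lowest 0.04, and within the 5 they were 0.81 and 0.63. The 2 sets had a median correlation of 0.35 with each other, with single pairs from -0.59 to 0.90. Some of the 11 thus varied with the 5 and others against them.

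**Figure D3:**
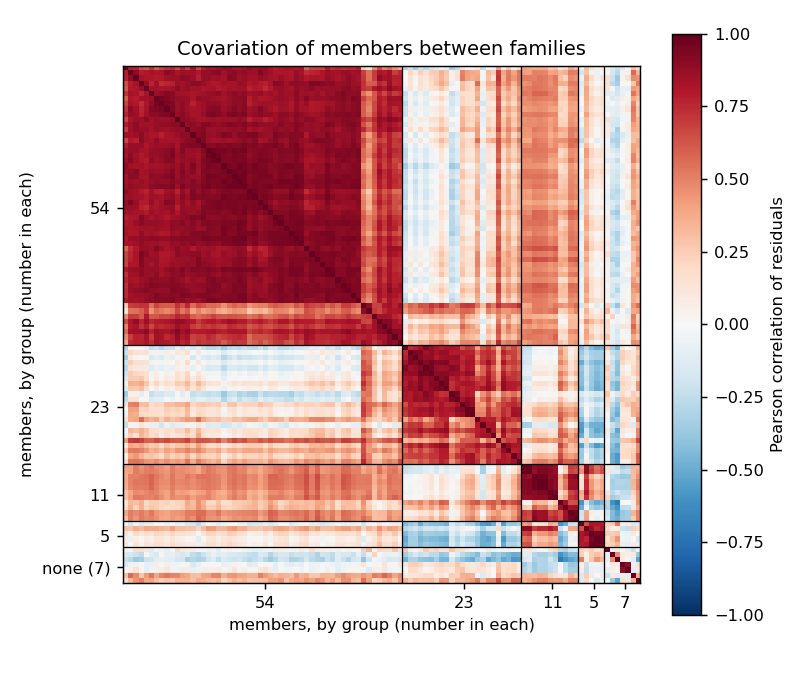
Pearson correlation (colour scale from -1 to 1) between every pair of the 100 members, computed over 46 libraries after the mean of each line and environment was removed; members are ordered by set (54, 23, 11, 5 and the 7 in none), and black lines separate the sets. The block of 54 has a median of 0.87, with a few members at lower values down to 0.13, and it has a median of 0.16 with the block of 23.

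The set of 54 carried most of the shift in share between the environments. In FC_POP it took 18.2% ± 1.65 of the counts in NC_ENV and 14.7% ± 0.822 in FC_ENV, 3.52 of the 4.60 points. In NC_POP it took 16.3% ± 0.948 in NC_ENV and 15.1% ± 1.47 in FC_ENV, 1.27 points more. The set of 23, which holds the most abundant genes, moved hardly at all in share: 14.2% ± 2.08 in NC_ENV and 14.5% ± 1.90 in FC_ENV in FC_POP, and 14.9% ± 1.37 in NC_ENV and 14.5% ± 1.22 in FC_ENV in NC_POP. Their differences were smaller than the SD between families.

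The set of 5 was higher on average without care, but with a wide spread between families. It took 2.14% ± 1.05 of the counts in NC_ENV and 1.06% ± 1.13 in FC_ENV in FC_POP, and 1.68% ± 1.03 in NC_ENV and 0.977% ± 0.740 in FC_ENV in NC_POP. Libraries ran from 0.00949% in family F2_34 (FC_POP, FC_ENV; 95% Wilson interval 0.00932% to 0.00966%) to 4.27% in family F2_43 (FC_POP, NC_ENV; 4.26% to 4.27%), a 450-fold range. Under 0.1% were 0 of 11 and 4 of 12 libraries of FC_POP in NC_ENV and FC_ENV, and 0 of 12 and 2 of 11 libraries of NC_POP in NC_ENV and FC_ENV. None of the 5 members passed the test of environment in either population (lowest adjusted p in edgeR's quasi-likelihood test 0.0853 in FC_POP and 0.106 in NC_POP).

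Over both populations the set of 11 had no common direction between environments. It took 4.33% ± 1.55 in NC_ENV and 4.18% ± 1.499 in FC_ENV in FC_POP, and 3.79% ± 2.23 in NC_ENV and 4.48% ± 1.20 in FC_ENV in NC_POP. By line, the gene tests below put all 11 lower without care in N1 (median log2 fold change -0.70), though none passed there. In F1, F2 and N2, 4, 7 and 4 of the 11 were above 0. Single families also stood out. In N1_30 (NC_POP, NC_ENV) the 11 genes took 0.278% of the counts, against up to 7.05% in family N2_06 of the same population and environment. Only 5 libraries were under 2%: 1 of FC_POP in NC_ENV, 3 of NC_POP in NC_ENV, all 3 of line N1, and 1 of NC_POP in FC_ENV. The family lowest in the whole table for all members together was F2_34 at 33.04%, which was also the lowest for the set of 5.

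**Figure D4:**
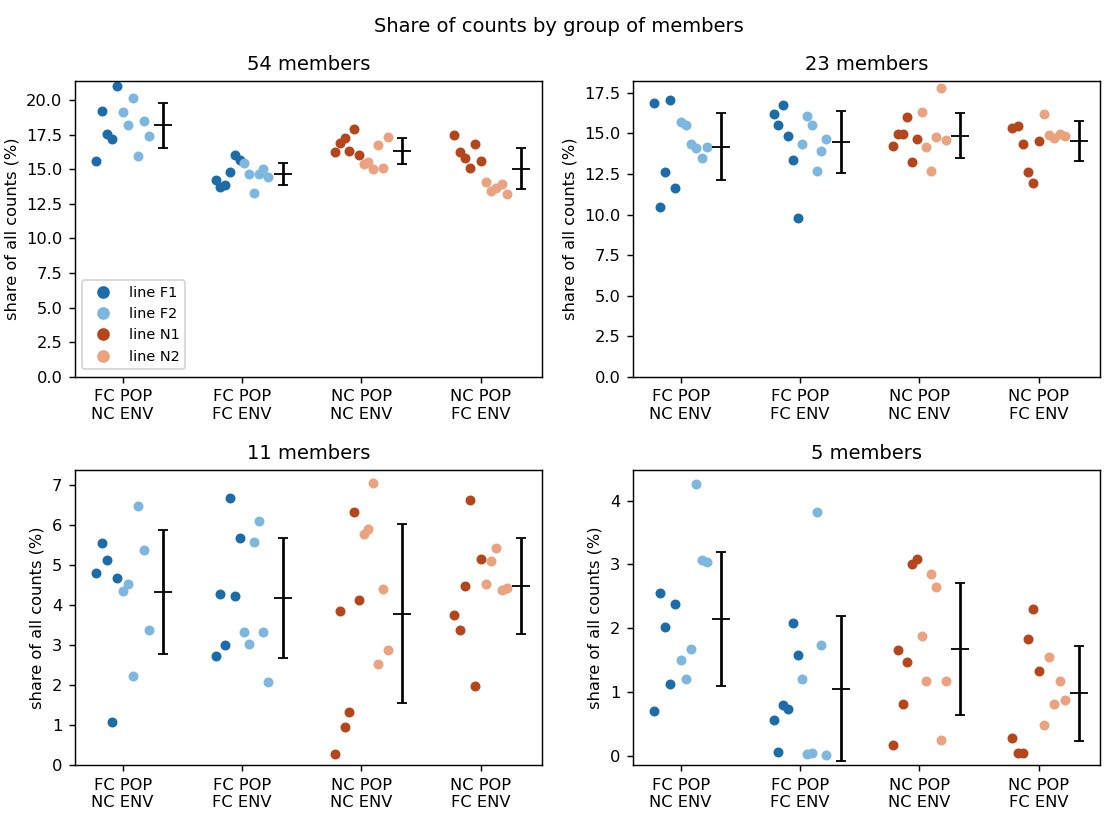
Share of all counts (%, y axes) taken by each of the 4 sets of members in each library, by population and environment; points are families coloured by line and bars are mean ± SD. The 54 members took 18.2% in FC_POP libraries of NC_ENV against 14.7% in those of FC_ENV, the 23 members averaged from 14.2% to 14.9% in every group, and the 11 and 5 members scatter down to 0.278% and 0.00949%.

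The question of which members changed when care was lost was tested gene by gene in 1 fit over all 46 libraries (edgeR's quasi-likelihood test, with the block as a covariate). A gene passed at a Benjamini-Hochberg adjusted p under 0.01 over all 11777 genes tested, and counted as a differentially expressed gene (DEG) where the change was also at least 2-fold. This fit scales each library by TMM factors, which assume that most genes do not change. The factors averaged 1.02 in NC_ENV and 0.974 in FC_ENV in FC_POP, and 1.05 in NC_ENV and 0.968 in FC_ENV in NC_POP. The median log2 fold change of all genes tested was 0.06 with these factors and 0.12 on library totals in FC_POP, and 0.06 and 0.18 in NC_POP, so that changes in CPM are higher than those of the fit by about these differences.

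In FC_POP larvae many members were slightly higher without care. Of the 100, 51 passed, against 34.8% of all genes tested. Of these, 45 were higher in NC_ENV, against 16.6% of all genes tested, and 6 were lower, against 18.2%. Among the next 100 genes, 19 were higher and 20 lower. The 45 had a median log2 fold change of 0.26, or 1.20-fold, from 0.18 to 0.91. Of the 45, 44 belonged to the set of 54, and each of the 54 had a log2 fold change above 0 in FC_POP. Only 1 member was a DEG, against 7.06% of all genes tested. The median log2 fold change was 0.21 over the members, -0.07 over the next 100 and 0.06 over all genes tested. On library totals without TMM factors, 54 members were higher and 4 lower. In block 1 alone (line F1) 1 member passed, and in block 2 alone (line F2) 40 did. In these and all other alternative fits, passing genes were counted among the members only. Their counts have no share of all genes tested beside them and do not compare the lines.

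In NC_POP larvae few members changed. Only 5 passed, against 20.1% of all genes tested: 1 was higher in NC_ENV (8.64% of all genes tested) and 4 were lower (11.4%), and none was a DEG (2.31%). Among the next 100 genes, 13 passed, all of them lower. No member of the set of 54 passed, and its median log2 fold change was -0.00, with 26 members above 0 and 28 below. The 45 genes that were higher in FC_POP had a median of 0.01 here, 27 of them above 0. The direction depended on the scaling. On library totals 7 members passed and all 7 were higher, and the median of the members was 0.10 in place of -0.02, but it stayed below the median of all genes under both scalings.

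The 5 members that passed in NC_POP also passed in FC_POP, with the same direction, and 46 passed in FC_POP alone. The difference between the responses was tested by the interaction of population and environment. This test counts families as replicates, although each population had only 2 lines. No member passed (lowest adjusted p 0.526), nor did any other gene, and DESeq2 called none of the members either. At an unadjusted p under 0.05 there were 54 members and 30 of the next 100 genes, against 7.98% of all genes tested. The 54 were the 54 members of the largest set, all with a smaller log2 fold change in NC_POP, and a median interaction of -0.24. They vary together between families and are not independent of each other.

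The line fits showed where this set differed. Its median log2 fold change in NC_ENV over FC_ENV was 0.23 for F1, 0.27 for F2, -0.11 for N1 and 0.12 for N2. All 54 were above 0 in F1, F2 and N2, while 53 of 54 were below 0 in N1. The NC_POP value near 0 was thus an average of lines on opposite sides of it on the TMM scale, whereas in CPM the set was also slightly higher without care in N1, by 1.04-fold. Over all 100 members, 69 were higher without care in line F1 and 74 in F2, while 11 were higher in N1 and 67 in N2. Members that passed numbered 2 for F1 (13.5% of all genes tested), 20 for F2 (19.1%), 1 for N1 (8.45%) and 3 for N2 (10.4%). The difference in response between F2 and F1, or between N2 and N1, passed for none of the members or of all genes in edgeR, with 2 and 12 members at an unadjusted p under 0.05 (3.76% and 8.25% of all genes tested); DESeq2 was not run on it. Only 30 members had the same sign in all 4 lines, 8 higher and 22 lower, against 62.1% of all genes tested.

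**Figure D5:**
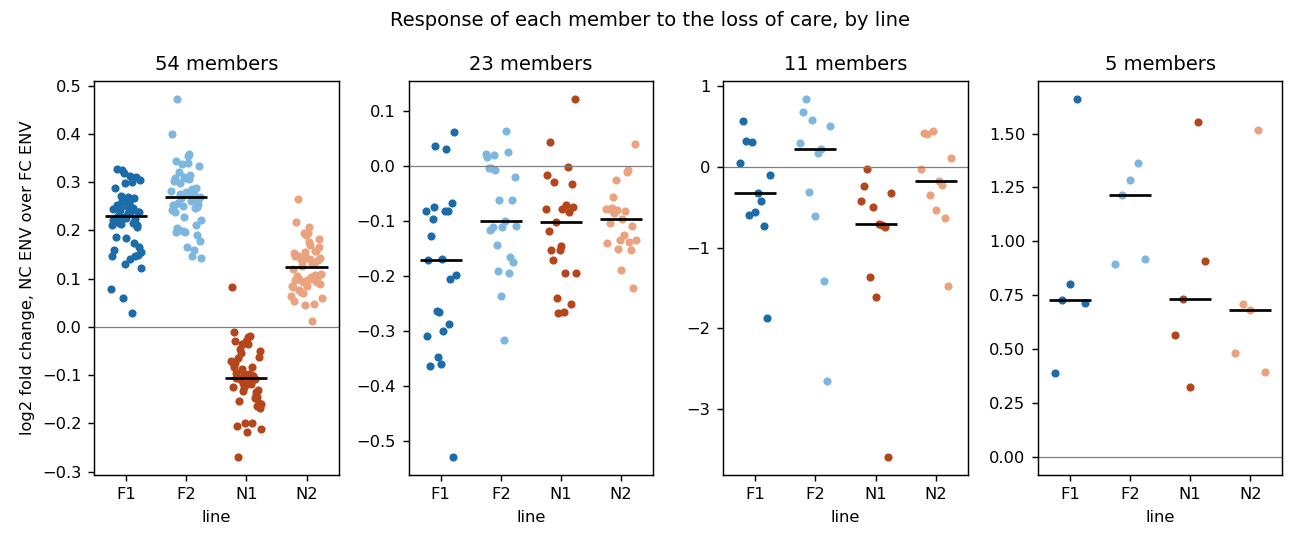
Log2 fold change of NC_ENV over FC_ENV (y axes, with a scale for each panel) of every member, by line and by set; each point is a gene and the bar is the median of the set. The 54 members lie above 0 in F1, F2 and N2 and, all but 1 of them, below 0 in N1 on the TMM scale (in CPM the set's share in N1 was 1.04-fold higher in NC_ENV), while the 5 members are above 0 in every line.

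In CPM the share of the set of 54 was higher without care in every line, and least so in N1. In F1 it took 18.1% in NC_ENV and 14.7% in FC_ENV, in F2 18.2% in NC_ENV and 14.6% in FC_ENV, in N1 16.8% in NC_ENV and 16.2% in FC_ENV, and in N2 15.9% in NC_ENV and 13.7% in FC_ENV. The FC_ENV libraries of N1 and N2 did not overlap for this set: those of N2 ran from 13.2% to 14.1% and those of N1 from 15.1% to 17.5%. In NC_ENV the lines N2 and N1 overlapped, from 15.04% to 17.4% in N2 and from 16.1% to 17.9% in N1.

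Averaged over both populations, 30 members passed the environment test, against 45.8% of all genes tested. Of these, 21 were higher in NC_ENV (23.7% of all genes tested), 20 of them in the set of 54, and 9 were lower (22.1%). Leaving out family N1_22 (NC_POP, FC_ENV), the library of its group with the highest share for the set of 54, gave 47. On library totals 59 passed, 53 higher and 6 lower. In block 1 alone 3 members passed and in block 2 alone 38, again without a share of all genes tested to set beside these counts.

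The largest rise that passed was that of gene2923, at rank 60, which belonged to no set. In FC_POP its lowest, median and highest levels were 1794, 3309 and 5391 CPM in NC_ENV, against 1251, 1568 and 2371 CPM in FC_ENV. In NC_POP they were 1647, 3446 and 4829 CPM in NC_ENV, against 969, 1539 and 3845 CPM in FC_ENV. The medians differed about alike in both populations, and the ranges overlapped. Its log2 fold change averaged over both populations was 0.87 (SE 0.132, adjusted p = 5.90e-07, edgeR), with 0.91 in FC_POP and 0.83 in NC_POP, both past the threshold. It ranked 48 by mean in FC_POP libraries of NC_ENV against 106 in those of FC_ENV, and 39 against 101 in NC_POP.

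The second largest rise was that of gene4849, at rank 64, a member of the set of 54. Its lowest, median and highest levels in FC_POP were 2559, 2823 and 3220 CPM in NC_ENV, against 1945, 2162 and 2470 CPM in FC_ENV. In CPM the 2 groups of FC_POP did not overlap, and the share of all genes that separate in CPM was not counted. On the TMM scale they did overlap, where 0 members had every NC_ENV library above every FC_ENV library. In NC_POP the levels were 2320, 2510 and 2673 CPM in NC_ENV, against 1908, 2182 and 2519 CPM in FC_ENV, which overlapped. The averaged log2 fold change was 0.19 (SE 0.0430, adjusted p = 1.94e-04, edgeR), with 0.31 in FC_POP (adjusted p = 6.79e-05) and 0.08 in NC_POP (adjusted p = 0.321). The other members of this set that passed had averaged log2 fold changes from 0.12 to 0.19.

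The largest fall was that of gene8330, at rank 72, a member of the set of 11. Its lowest, median and highest levels in FC_POP were 13.7, 506 and 3390 CPM in NC_ENV, against 397, 4234 and 6780 CPM in FC_ENV. In NC_POP they were 18.3, 468 and 4130 CPM in NC_ENV, against 28.3, 3254 and 6766 CPM in FC_ENV. The medians differed by a wide margin in both populations and the ranges overlapped in part. The averaged log2 fold change was -2.17 (SE 0.546, adjusted p = 8.18e-04, edgeR), and it was the only member that passed with at least 2-fold in that average (7.29% of all genes tested). Within each population it missed the threshold, at -2.19 in FC_POP (adjusted p = 0.0182) and -2.16 in NC_POP (adjusted p = 0.0292). By group mean it ranked 28 in FC_ENV in both populations, against 196 in NC_ENV in FC_POP and 179 in NC_ENV in NC_POP.

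The second largest fall was that of gene6635, at rank 69, also of the set of 11. Its lowest, median and highest levels in FC_POP were 630, 1357 and 3284 CPM in NC_ENV, against 1291, 3233 and 4581 CPM in FC_ENV. In NC_POP they were 945, 1779 and 3920 CPM in NC_ENV, against 1104, 2911 and 3908 CPM in FC_ENV. The averaged log2 fold change was -0.87 (SE 0.189, adjusted p = 1.50e-04, edgeR). In FC_POP it was the single DEG among the members, at -1.06 (adjusted p = 0.00127), and in NC_POP it missed the threshold, at -0.67 (adjusted p = 0.0455). These 2 genes were the only ones of the set of 11 that passed in the average, and the other 9 had log2 fold changes from -0.79 to 0.38.

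The other 7 falls that passed in the average were small, from -0.19 to -0.42. Of these, 3 belonged to no set, at ranks 42, 43 and 70, and also passed in each population on its own, as did the one at rank 68. The one at rank 70 had the lowest adjusted p of all members, 3.69e-08 in edgeR, for a log2 fold change of -0.25 (SE 0.0334). The other 4 belonged to the set of 23, in which 21 of 23 members were below 0 in the average. Members with larger rises missed the threshold because of their spread. The member at rank 62, of the set of 5, had a log2 fold change of 1.51 (adjusted p = 0.0121, edgeR), and the one at rank 85 had 1.16 (adjusted p = 0.01001, just outside).

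No member passed a test between the populations, whether for NC_POP against FC_POP averaged over both environments (0.62% of all genes tested), in FC_ENV (0.0849%) or in NC_ENV (0.331%). DESeq2 called 0, 0 and 3 members in these comparisons. All of these tests count families as replicates, although each population had only 2 lines. At an unadjusted p under 0.05 in edgeR there were 16 members in the average (15.7% of all genes tested), 0 in FC_ENV (7.53%) and 56 in NC_ENV (16.6%). Among the next 100 genes there were 7 in the average, 1 in FC_ENV and 34 in NC_ENV. The 56 included all 54 members of the largest set, which were lower in NC_POP than in FC_POP by a median of -0.20 on the log2 scale. Their lowest adjusted p was 0.0155. Over all members the median was -0.18 in NC_ENV and 0.04 in FC_ENV. Leaving out family N1_37 gave 4 passing members in NC_ENV, and leaving out family F1_06 gave 2.

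The share of counts gave the same order. Between populations it was 39.0% ± 2.17 in NC_POP and 40.9% ± 1.28 in FC_POP in NC_ENV, 1.94 points lower in NC_POP (SE 0.735). In FC_ENV it was 37.1% ± 1.15 in NC_POP and 36.3% ± 1.78 in FC_POP, 0.767 points higher in NC_POP (SE 0.620), which was within the spread between families.

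None of the members passed between the replicate lines, for F2 against F1 (1.72% of all genes tested) or N2 against N1 (2.69%), and DESeq2 called 0 and 1. At an unadjusted p under 0.05 there were 4 and 17 members, against 20.2% and 31.2% of all genes tested. The members' median log2 difference was 0.02 for F2 over F1 and -0.03 for N2 over N1. For N2 over N1 the sets lay on different sides of 0 on the TMM scale: 50 of the 54 were below 0 (median -0.08), while 22 of the 23 (median 0.16) and all of the 11 (median 0.55) were above 0. The mean shares of these 3 sets in CPM had the same directions in both environments. The N2 to N1 comparison depended on the scaling: on library totals, where the median of all genes was -0.12, 8 members passed, all lower in N2. The share of counts was 38.9% ± 3.26 in F2 and 38.1% ± 2.27 in F1, and 38.05% ± 1.74 in N2 and 38.1% ± 2.24 in N1 (SD, n = 12, 11, 11 and 12).

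Few members separated the environments library by library. On the TMM scale 0 members in FC_POP had every NC_ENV library above every FC_ENV library, and 1 had every NC_ENV library below, against 3.14% of all genes tested that separated in either direction. In NC_POP there were 0 in both directions, against 1.22% of all genes tested. In CPM, 76 members had a higher mean in NC_ENV in FC_POP, adding 5.95 points, and 24 had a lower one. In NC_POP 80 had a higher mean, adding 3.001 points, and 20 had a lower one. The largest single gain was 0.328 points, by the eighth most abundant gene in FC_POP, so no single gene made up the shift. Without the 5 most abundant members, taken out of the members and of the total, the difference between environments was 4.70 points in FC_POP and 1.94 points in NC_POP.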

How the data were processed

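RNA of pooled larval heads was measured in 46 libraries. The labels name 14 further bisulfite samples, which were not analysed here. The authors trimmed reads with TrimGalore 0.5.0, mapped them with HISAT2 2.1.0, estimated gene counts with StringTie 2.0.3 on the RefSeq annotation and deposited whole-number counts per gene without normalization. The study's methods give 12 libraries for NC_POP in FC_ENV, where the count table holds 11. Of count values from 1 to 100, 39.8% were multiples of 4, against 24.7% of the members' values. Lines, populations and environments were taken from the labels. The block was read from the number in the line name, given the 2 blocks of the study's design. Libraries of a group were separate families.

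Members were the 100 genes with the highest mean CPM. The members, the comparisons and the lists were chosen with earlier results of these data known. Gene identifiers are not paired with names in the sources used here, so lists by product, tissue markers and sequences were not used. The rule for named genes took the 12 most abundant members and the 6 largest rises and falls that passed in the averaged environment contrast, with at most 2 identifiers each way and the rest given by rank or count.

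Counts were tested in R 4.3.3 with edgeR 4.0.16 (TMM, quasi-likelihood test) over genes with at least 15 counts in 10% of libraries (11777 genes), with 4 groups and the block as a covariate. Line contrasts used the 8 groups of line and environment. P-values were adjusted over all genes tested. Shares were summed from CPM and given without a test. Covariation used log2(CPM + 0.5) on TMM-scaled totals. Alternatives were DESeq2 1.42.0, DESeq2 size factors, library totals, scaling on genes that are not members, other filters, an adjusted p under 0.05, no block covariate, each block alone, each library left out and other member rules.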

Additional observations from a re-analysis of the deposited data

How the results depend on the processing

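No paired analysis was possible because each family gave a single library, which belongs to 1 group. The block took the place of a pairing as a covariate. Counts of passing members stayed within 1.5 times their value under other size factors, scaling on genes that are not members, other filters and no block covariate. In block 1 alone, 1 member passed in FC_POP, 0 in NC_POP and 3 in the average, and in block 2 alone 3 passed in NC_POP and 1 for NC_POP against FC_POP in NC_ENV. These fits hold about 50% of the libraries. In all the alternatives, passing genes were counted among the members only, so the counts cannot be set against the share of all genes tested. On library totals 59 passed in the average and 8 for N2 against N1. At an adjusted p under 0.05, 48 passed in the average, 9 for NC_POP against FC_POP in NC_ENV and 4 for N2 against N1. DESeq2 called 3 for NC_POP against FC_POP in NC_ENV and 1 for N2 against N1. With each library left out, passing members ran from 35 to 56 in FC_POP, from 4 to 6 in NC_POP, from 21 to 47 in the average, from 0 to 4 for NC_POP against FC_POP in NC_ENV and stayed at 0 for the 2 line contrasts, the interaction and the 2 other population contrasts. The difference in share ran from 4.30 to 4.87 points in FC_POP and from 1.57 to 2.34 points in NC_POP. With 50 members it was 2.73 points in FC_POP. The difference was uneven by rank: in FC_POP it was 0.802 points over the 10 highest members and 3.80 points over the other 90. A set of 200 genes would add the next 100, whose share was lower without care. That share was 12.7% in NC_ENV against 13.5% in FC_ENV in FC_POP, and 12.5% against 13.6% in NC_POP. In the average, gene2923, gene4849 and gene6635 missed the threshold in block 1 alone and gene8330 in block 2 alone. No identified gene changed direction under these alternatives. With a correlation limit of 0.7 or 0.3, chosen after seeing the data, the largest set held 46 or 67 members in place of 54. The smaller sets depended on the limit too. At 0.7 there were 6 sets of at least 5 members, the 4 largest of 46, 14, 8 and 7. At 0.3 there were 3, of 67, 23 and 5, so no set of 11 stood apart. Depth limited no member, since the lowest count was 240.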
